A study of Mus musculus with 91 samples.

Results

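Arterial and venous endothelial cells are told apart by a small set of surface molecules and transcription factors, and 8 such genes were followed here through the sorted cells of the fetal mouse gonad: *Efnb2*, *Dll4*, *Gja4*, *Gja5*, *Unc5b*, *Robo4*, *Ephb4* and *Nr2f2*. They were chosen by name from 21789 transcript clusters (the array's units of measurement) that name a single gene. Each of the 8 was represented by 1 such cluster. Values are log2 intensities, so a difference of 1 is a doubling, and probes differ in brightness from gene to gene, so levels were not compared between genes.

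Cells were isolated from XY and XX gonads of 3 fetal stages (E11.5, E12.5, E13.5) by fluorescence-activated sorting, with 3 arrays for each of 30 groups and 90 arrays in all. Endothelial cells carried *Flk1-mCherry*, a transgene driven by the *Kdr* (VEGF receptor) promoter and kept homozygous on the CD-1 background. XY interstitial and XX stromal cells were sorted from a reporter line of their own. Supporting cells carried *Sry-EGFP*, except at E12.5 and E13.5 in XY gonads, where *Sox9-ECFP* was used. Germ cells carried *Oct4-EGFP*. In most cases males of the interstitial and stromal line and of the *Sry-EGFP*, *Sox9-ECFP* and *Oct4-EGFP* lines were mated with CD-1 females. The *αSma-EYFP* transgene, on a mixed FVB and CD-1 background, labels a mixed population that held supporting as well as interstitial cells by the study's account, and it was kept apart from the 4 lineages. Each array measured cells pooled from at least 1 litter, with no treatment in any group.

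Several features of the sorts touch the values below. At E11.5 the *Flk1-mCherry* sort kept a portion of the mesonephros, whereas its later sorts used the gonad alone. For germ cells the labels place the mesonephros in the E11.5 sort, and the methods name no stage. The methods state that XY *Flk1-mCherry* cells include Leydig cells. *Cdh5*, a junction protein of all endothelium, lay between 11.22 and 12.24 on the 18 *Flk1-mCherry* arrays, against 5.68 to 9.11 on the other 72 arrays. *Kdr* lay between 10.34 and 11.15 on the *Flk1-mCherry* arrays, against 5.42 to 8.50 elsewhere. The sort selects for the *Kdr* promoter, so *Kdr* is no independent check of the label. Markers of other cells in the sort, Leydig cells among them, are given below. Array medians ran from 6.555 to 6.811. Replicate 2 of E11.5 XY *Flk1-mCherry* stood apart, with correlations of 0.9652 and 0.9646 to its replicates 1 and 3, against 0.9829 between those replicates and 0.9768 to 0.9968 within the other 29 groups.

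In the forming vascular bed, arteries and veins acquire their identity partly before flow begins. VEGF signaling raises the Notch ligand *Dll4* in endothelium, Notch activity favors the arterial programme, and the nuclear receptor encoded by *Nr2f2* (COUP-TFII) represses Notch signaling and maintains venous identity. Arterial cells display the ligand ephrin-B2 (*Efnb2*) and venous cells its receptor EphB4 (*Ephb4*), whose contact keeps the compartments apart. *Gja4* and *Gja5* encode connexins of arterial gap junctions, and *Robo4* and *Unc5b* encode guidance receptors of endothelium that restrain permeability and sprouting. The XY gonad is known for a coelomic artery that forms along its surface as the testis takes shape and has no counterpart in the XX gonad.

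The promoters of *Gja5*, *Dll4* and *Robo4* are shown because these were the 3 members whose levels differed between XY and XX *Flk1-mCherry* cells. Each run is the 250 bases before the annotated start, RefSeq sequence on GRCm38.p6, plus strand, read 5′ to 3′. Capitals mark GGAA or its reverse complement TTCC, the core bound by ETS factors, and ACAAT or its reverse complement ATTGT, a core bound by SOX factors.
Gja5, chr3:97032152-97032401: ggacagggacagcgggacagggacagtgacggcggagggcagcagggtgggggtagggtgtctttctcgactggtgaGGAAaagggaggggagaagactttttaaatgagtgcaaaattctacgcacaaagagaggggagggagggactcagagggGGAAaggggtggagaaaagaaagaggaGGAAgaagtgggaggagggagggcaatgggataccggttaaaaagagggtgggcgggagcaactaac
Dll4, chr2:119325534-119325783: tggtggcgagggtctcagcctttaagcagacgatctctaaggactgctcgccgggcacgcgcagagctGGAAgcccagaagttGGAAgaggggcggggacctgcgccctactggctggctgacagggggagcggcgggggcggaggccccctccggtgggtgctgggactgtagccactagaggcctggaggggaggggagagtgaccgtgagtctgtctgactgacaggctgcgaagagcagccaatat
Robo4, chr9:37401722-37401971: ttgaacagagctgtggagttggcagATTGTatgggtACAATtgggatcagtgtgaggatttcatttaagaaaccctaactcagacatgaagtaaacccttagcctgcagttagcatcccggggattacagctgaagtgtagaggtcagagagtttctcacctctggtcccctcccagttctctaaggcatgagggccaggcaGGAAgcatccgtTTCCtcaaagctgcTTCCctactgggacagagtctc

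The 4-letter ETS core was present in the promoters of 8 of 8 members and in 93.4% of all 32851 promoters of this length, so its presence does not set the members apart. *Gja5* held 3 copies, *Dll4* held 2 and *Robo4* held 3. The SOX core was found in 2 members, *Robo4* and *Gja4*, and in 27.7% of all promoters. TGGGAA, a core bound by the Notch effector RBPJ that contains GGAA, was found in no member on either strand and in 21.6% of all promoters, and TGTTTA, a forkhead core, in no member and in 12% of all promoters. These letters are a description of the window and mark no site of binding. The 3 promoters differed in base composition, with 56.4% G and C in *Gja5*, 65.6% in *Dll4* and 49.6% in *Robo4*, beside a median of 52.4% over all promoters.

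Across the sorted cells, 7 of the 8 genes were highest in *Flk1-mCherry* cells, and the venous factor *Nr2f2* was not. *Robo4* ran from 7.93 over a median of 8.51 to 9.19 on the 18 *Flk1-mCherry* arrays, and from 5.92 over 6.26 to 6.58 on the 72 other arrays. *Gja4* ran from 7.98 over 8.74 to 9.84 in *Flk1-mCherry* cells and from 6.11 over 6.42 to 7.0 outside them. *Dll4* ran from 6.88 over 7.44 to 8.30 in *Flk1-mCherry* cells and from 5.96 over 6.24 to 6.56 outside them. For these 3 genes the lowest endothelial array lay above the highest array of any other cells, and their levels in the 4 other classes of cells followed one another within 1 SD. *Gja5* ran from 6.40 over 8.41 to 10.93 in *Flk1-mCherry* cells, the widest spread of any member there, and from 5.38 over 5.60 to 5.91 in all others. Its values outside the endothelium lay under the low value limit of log2 6 used as a filter, so any fold against them is a lower bound. *Unc5b* ran from 6.81 over 7.54 to 8.81 in *Flk1-mCherry* cells and from 6.13 over 6.44 to 6.90 elsewhere, where the lowest endothelial arrays met the highest of the *αSma-EYFP* arrays.

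**Figure D1:**
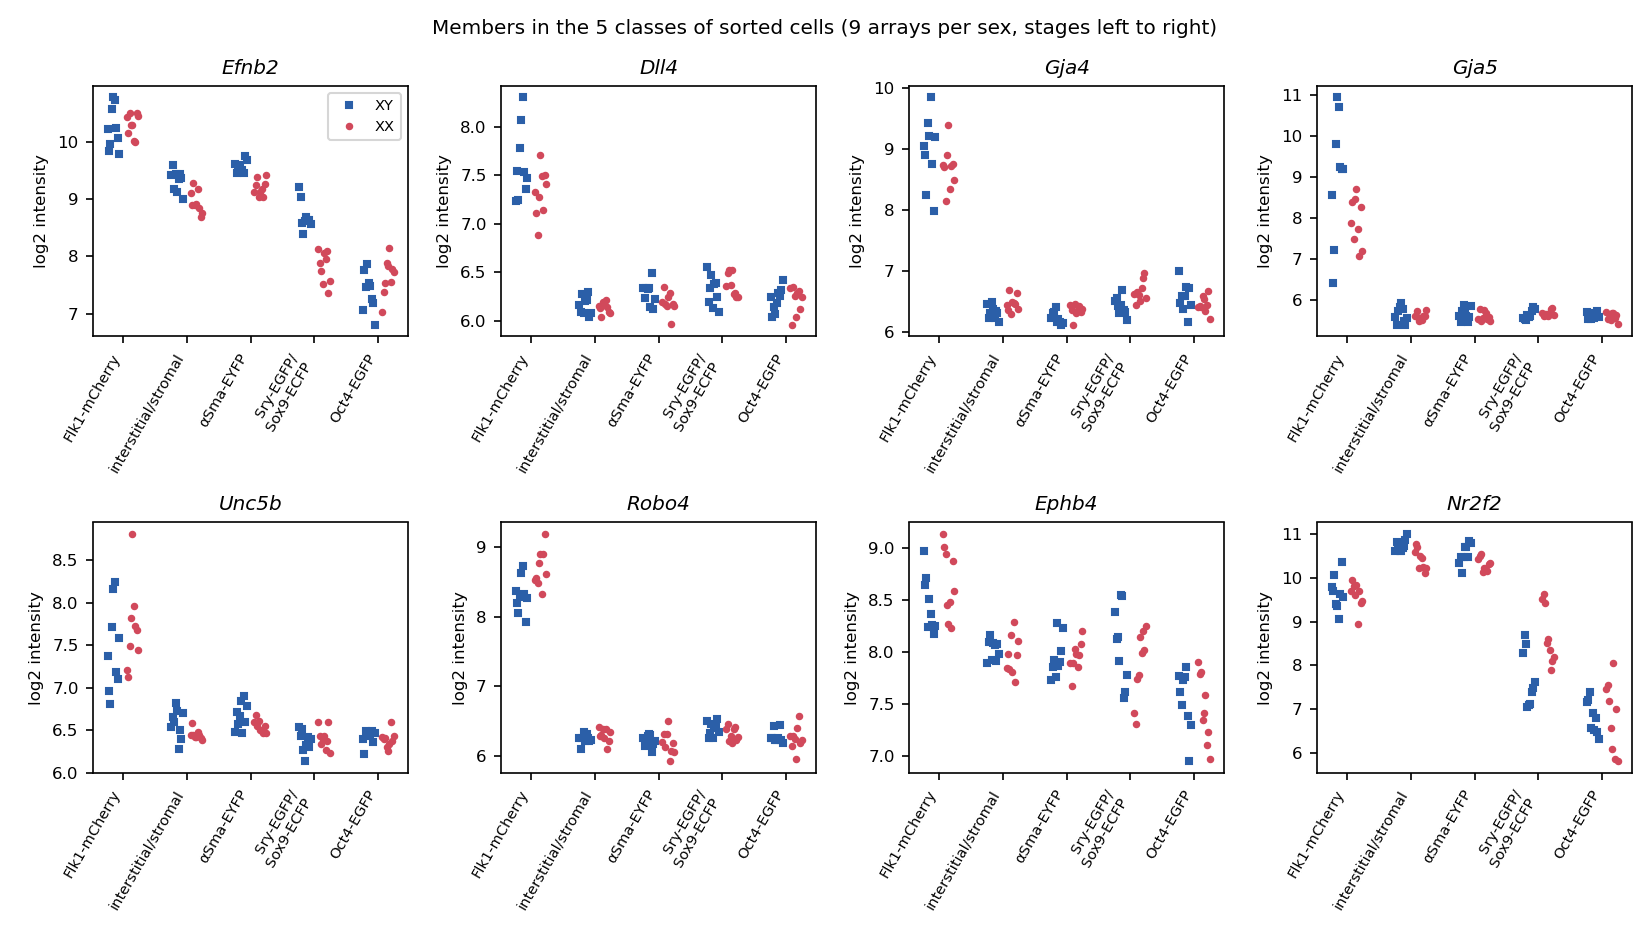
Log2 intensity of the 8 genes (vertical axis, own range for each) in the 5 classes of sorted cells; each point is 1 array, squares XY and circles XX, with stages from E11.5 to E13.5 running left to right within each cloud. *Flk1-mCherry* arrays of *Dll4*, *Gja4*, *Gja5* and *Robo4* stand clear of all other arrays, *Efnb2* and *Ephb4* spread over several lineages, and *Nr2f2* is highest in interstitial and stromal and in *αSma-EYFP* cells.

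The ephrin pair was less confined. *Efnb2* ran from 9.79 over 10.26 to 10.78 in *Flk1-mCherry* cells, 9.03 over 9.44 to 9.76 in *αSma-EYFP* cells, 8.69 over 9.14 to 9.60 in interstitial and stromal cells, 7.36 over 8.26 to 9.21 in supporting cells and 6.80 over 7.53 to 8.15 in germ cells. The endothelial arrays lay above all others, and the *αSma-EYFP* and interstitial arrays did not differ beyond their spread. *Ephb4* ran from 8.18 over 8.49 to 9.14 in *Flk1-mCherry* cells and overlapped there with the interstitial and stromal range of 7.71 to 8.29. Interstitial, supporting and *αSma-EYFP* cells could not be ordered for *Ephb4*, with means of 8.00, 7.97 and 7.95 and SDs of 0.15, 0.36 and 0.17 over 18 arrays each. Germ cells had the lowest mean for both genes of the pair, with ranges that overlapped those of supporting cells.

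*Nr2f2* followed another order. It ran from 10.11 over 10.61 to 11.01 in interstitial and stromal cells, 10.11 over 10.45 to 10.84 in *αSma-EYFP* cells, 8.94 over 9.67 to 10.36 in *Flk1-mCherry* cells, 7.04 over 8.24 to 9.63 in supporting cells and 5.80 over 6.86 to 8.06 in germ cells. The first and second of these did not differ beyond their spread. The gene is known in many organs as a factor of mesenchyme as well as of veins.

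The endothelial enrichment was tested within each sex and stage against the mean of the 3 other lineages with limma over 16820 clusters, calling an adjusted p (Benjamini-Hochberg) below 0.05. All 8 members were called higher in *Flk1-mCherry* cells in all 6 groups, where 15.6% to 21.4% of all clusters were called higher (20.4% in XY and 17.4% in XX at E11.5, 21.4% in XY and 21% in XX at E12.5, 15.6% in XY and 15.9% in XX at E13.5). *Gja5* entered the test only through its 6 endothelial groups, so its calls add nothing to this count. The difference ran from 1.86 to 2.62 for *Robo4*, 2.03 to 3.03 for *Gja4*, 1.43 to 2.28 for *Efnb2* and 0.84 to 1.82 for *Dll4*. It ran from 0.56 to 1.83 for *Unc5b*, 0.62 to 1.56 for *Nr2f2* and 0.32 to 1.30 for *Ephb4*, ranges that overlapped that of *Dll4*. In comparisons with each lineage apart, added after the values were seen, *Nr2f2* was lower in *Flk1-mCherry* than in interstitial or stromal cells in all 6 groups, by -0.66 to -1.37, beside 21%, 13.2% and 10.7% of clusters called lower in XY over the 3 stages and 13.9%, 20.3% and 13.5% in XX. For *Ephb4* the call against interstitial cells was missed in XX at E12.5 (adjusted p = 0.064), XY at E12.5 (0.052) and XY at E13.5 (0.24). Against supporting cells the call was missed for *Ephb4* in XY at E12.5 (0.03, adjusted p = 0.88) and for *Nr2f2* in XX at E11.5 (0.30, adjusted p = 0.38). Against germ cells all 8 were called higher in all 6 groups, with *Gja5* again in the test only through its endothelial groups. The share of all clusters called against germ cells is not given here, so this count is not read as a result about the members. These sorts hold many cells, and fewer cells that express a gene cannot be told apart from less RNA of that gene per cell.

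Within the endothelial sort, the connexin gene *Gja5* differed most between XY and XX. At E11.5 its arrays overlapped, with 8.56, 6.40 and 7.21 in XY and 7.87, 8.38 and 7.48 in XX *Flk1-mCherry* cells. At E12.5 it reached 9.79, 10.93 and 10.70 in XY, against 8.45, 8.69 and 7.72 in XX, and at E13.5 it stood at 9.22, 9.18 and 9.19 in XY, against 7.06, 8.25 and 7.19 in XX. Every XY array exceeded every XX array at both later stages. The XY minus XX difference was 2.19 ± 0.26 (SE), a 4.57-fold higher level in XY, at E12.5 (adjusted p = 1.1e-08) and 1.69 ± 0.26, 3.23-fold, at E13.5 (adjusted p = 2.6e-06). At E11.5 it was -0.52 ± 0.26 (adjusted p = 0.33). That early value depended on single arrays: without XY replicate 1 it became -1.10 with an adjusted p of 0.00065, and without XY replicate 2, the array that stood apart, it was -0.02.

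The XY minus XX difference of *Gja5* changed between stages. Relative to E11.5 it was larger by 2.71 ± 0.36 at E12.5 (adjusted p = 1.3e-06, where 6.06% of clusters were called) and by 2.21 ± 0.36 at E13.5 (adjusted p = 3.2e-05, where 2.6% were called). Leaving out each E11.5 XY array in turn gave changes of 2.21 to 3.29 at E12.5 and 1.71 to 2.79 at E13.5, all of them called. The pooled fit borrows a spread from cells where *Gja5* hardly varied. With the 18 *Flk1-mCherry* arrays alone the difference kept its call at E12.5 (adjusted p = 0.034) and lost it at E13.5 (0.065), and the changes with stage lost theirs (0.12 and 0.19).

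**Figure D2:**
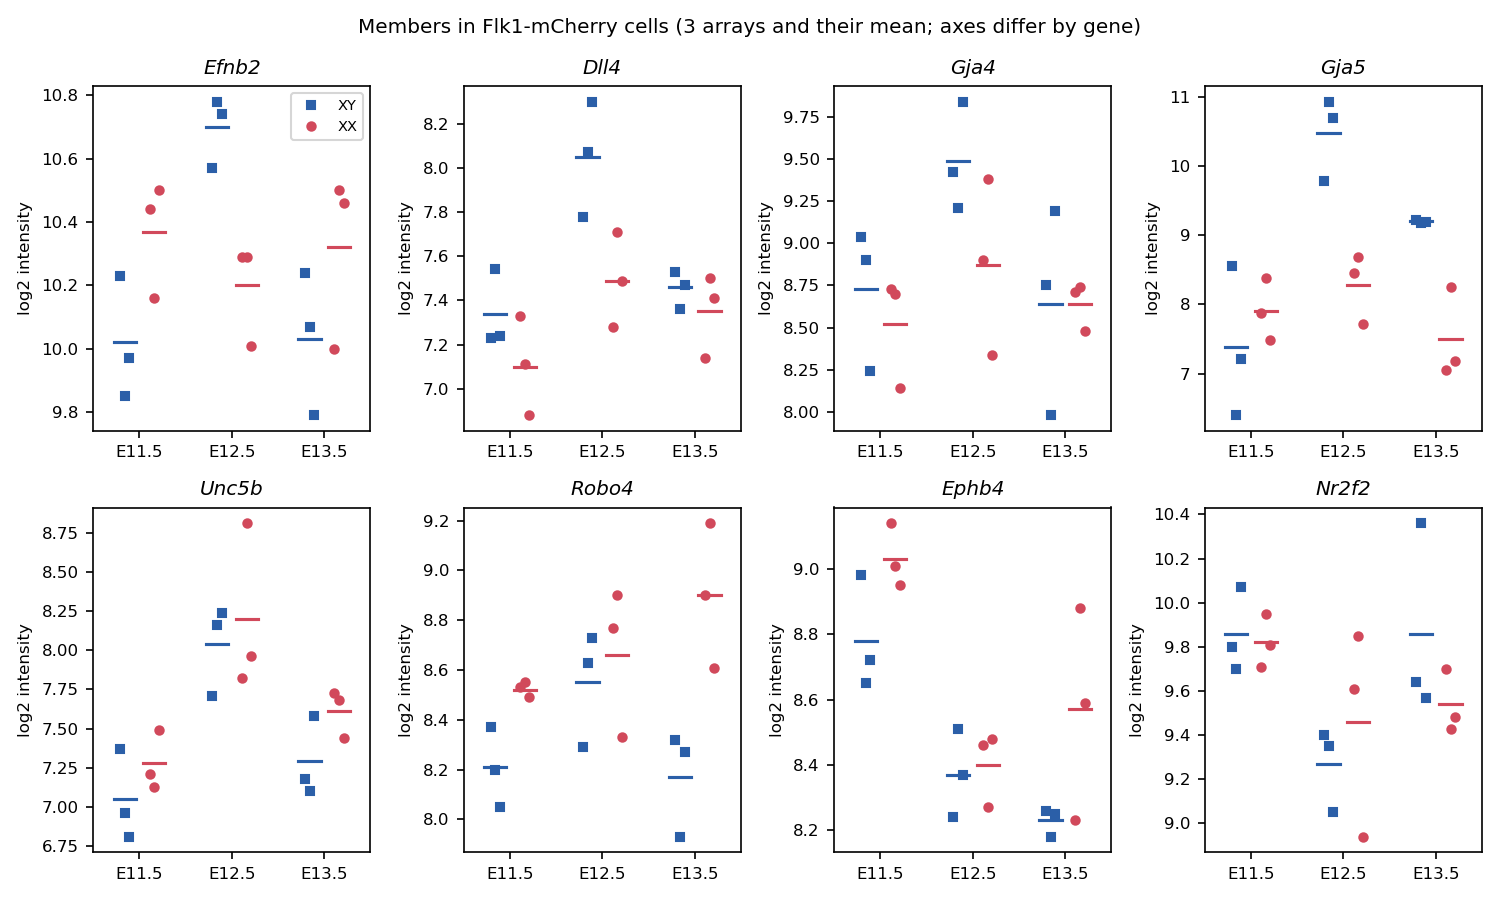
Log2 intensity (vertical axis, own range for each gene) of the 8 genes in *Flk1-mCherry* cells of the 3 stages; squares are XY arrays, circles XX arrays and bars the means of 3. *Gja5* separates XY from XX arrays at E12.5 and E13.5, *Dll4* and *Efnb2* at E12.5 and *Robo4* at E11.5 and E13.5. The *Efnb2* difference and the E11.5 *Robo4* difference were not called. In XY *Efnb2*, *Dll4*, *Gja4*, *Gja5* and *Unc5b* are highest at E12.5.

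The other arterial genes differed less. *Dll4* stood at 7.78, 8.07 and 8.30 in XY, against 7.28, 7.71 and 7.49 in XX at E12.5, with no overlap, and the difference of 0.56 ± 0.12 was a 1.47-fold higher level in XY (adjusted p = 0.0022). The call was missed without XY replicate 3 (adjusted p = 0.064) and with the *Flk1-mCherry* arrays alone (0.17). At E11.5 and E13.5 the *Dll4* difference was 0.23 and 0.10 and did not pass. *Efnb2* at E12.5 measured 10.57, 10.78 and 10.74 in XY, against 10.29, 10.29 and 10.01 in XX. Its arrays did not overlap, yet the difference of 0.50 ± 0.18 did not pass (adjusted p = 0.11). *Gja4* at E12.5 measured 9.42, 9.21 and 9.84 in XY, against 8.90, 9.38 and 8.34 in XX, with overlap and a difference of 0.62 ± 0.20 (adjusted p = 0.075).

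The guidance receptor gene *Robo4* went the other way. At E13.5 it measured 8.32, 7.93 and 8.27 in XY, against 8.90, 9.19 and 8.61 in XX *Flk1-mCherry* cells, and no arrays overlapped. The difference was -0.73 ± 0.12, a 1.66-fold lower level in XY (adjusted p = 2.7e-05). Of 24 pan-endothelial genes, 7 were also called lower and none higher in XY at E13.5, with a median difference of -0.51 over the list. Their mean level ran from 9.19 to 9.83 in XY and 9.83 to 10.13 in XX. When each array's pan-endothelial mean was subtracted, the *Robo4* difference was -0.22 and lost its call (adjusted p = 0.081), while *Gja5* stood at 2.20 (adjusted p = 6.9e-11). On that scale 3 further members were higher in XY at E13.5, *Dll4* by 0.61, *Gja4* by 0.50 and *Nr2f2* by 0.83. The subtraction shifts every cluster by the same amount, and before it these 3 stood at 0.10, -0.003 and 0.32. The median over all clusters was -0.013 before it, so a gene without a difference also reads higher in XY on that scale. These 3 values are therefore not read as differences of the members. For the same reason the lost *Robo4* call and the larger *Gja5* value are not read as results.

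The venous pair showed no called difference between XY and XX *Flk1-mCherry* cells. *Ephb4* differed by -0.25 at E11.5, -0.03 at E12.5 and -0.33 at E13.5, and the last had a 95% interval of -0.61 to -0.06 before adjustment (adjusted p = 0.20). *Nr2f2* differed by 0.04, -0.20 and 0.32, with intervals of -0.46 to 0.54, -0.70 to 0.30 and -0.18 to 0.82, so differences of that size were not detectable with 3 arrays. *Unc5b* differed by -0.23, -0.16 and -0.33 and was not called at any stage.

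Counted over the members, 0 of 8 were called at E11.5 by limma (1 at an unadjusted p below 0.05, *Robo4* at 0.013, and 0.981% of all clusters called), 2 of 8 at E12.5 (3.55%) and 2 of 8 at E13.5 (5.31%). Without overlap between arrays stood 1 member at E11.5 (9.86% of clusters), 3 at E12.5 (15.1%) and 2 at E13.5 (18%).

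**Figure D3:**
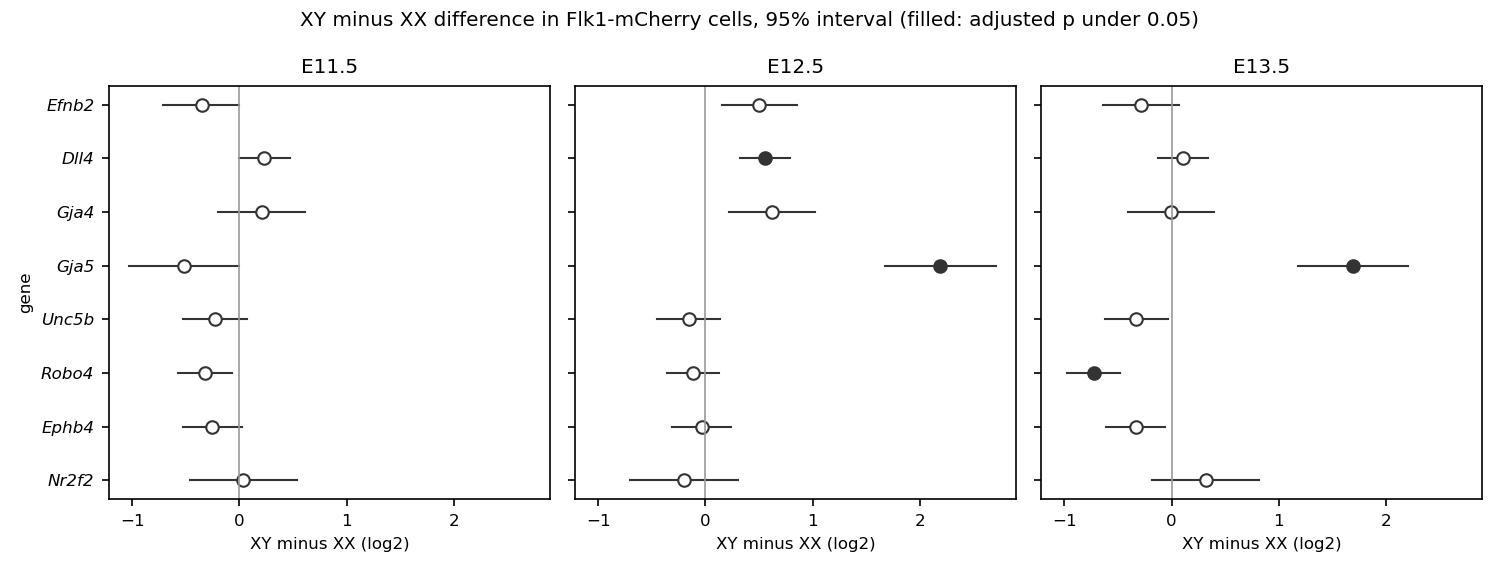
XY minus XX difference (horizontal axis, log2) for the 8 genes in *Flk1-mCherry* cells at each stage, with the 95% interval; filled circles passed an adjusted p of 0.05. *Gja5* at 2.19 and 1.69 stands apart from the other members at E12.5 and E13.5, and *Robo4* at E13.5 is the only called difference below 0.

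Leydig cell genes moved with the XY endothelial sort over the same stages. *Cyp17a1*, which encodes a steroid hydroxylase of Leydig cells, measured 5.21, 5.69 and 5.27 at E11.5, 9.47, 9.09 and 9.16 at E12.5 and 11.56, 11.31 and 11.39 at E13.5 in XY *Flk1-mCherry* cells, against 5.09 to 5.59 on the XX arrays. Of 9 Leydig genes tested, none was called at E11.5, 8 were higher in XY at E12.5 and 9 at E13.5, with median differences of 0.07, 1.37 and 2.17. Their mean level ran from 8.08 to 8.23 in XY at E12.5 and 9.53 to 9.92 in XY at E13.5, against 6.35 to 6.62 in XX over all stages.

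In XY interstitial cells at E13.5, *Cyp17a1* measured 10.70, 11.06 and 10.91, and *Gja5* on all 18 interstitial and stromal arrays lay between 5.38 and 5.91. The part of Leydig cells in the *Gja5*, *Dll4*, *Robo4* and pan-endothelial differences was not tested.

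Markers of other cells also moved with the XY minus XX comparison of *Flk1-mCherry* cells. Of 9 Sertoli genes *Aard* was higher in XY at E12.5 (1.40) and E13.5 (2.08), and the list mean at E13.5 ran from 6.96 to 7.2 in XY and 6.51 to 6.77 in XX. Of 7 pre-granulosa genes *Irx3* was lower in XY at E12.5 (-0.85), and *Fst* (-1.75), *Irx3* (-0.87) and *Rspo1* (-0.73) were lower at E13.5, where the list mean ran from 7.29 to 7.33 in XY and 7.63 to 8.19 in XX. At E13.5 the calls, all higher in XY, also took in *Dppa3* of 9 germ cell genes (1.67), 2 of 10 mural genes (*Acta2* at 1.41 and *Abcc9* at 0.58), 2 of 7 mesenchymal genes (*Pdgfra* at 1.16 and *Col3a1* at 0.68) and 3 of 9 red blood cell genes (*Hba-x*, *Hbb-bh1* and *Tfrc*). The list means there ran from 6.67 to 6.86 in XY and 6.43 to 6.79 in XX for germ cells, from 6.64 to 7.45 in XY and 6.51 to 7.2 in XX for mural cells, from 7.06 to 8.73 in XY and 6.76 to 7.75 in XX for mesenchyme, and from 7.81 to 8.3 in XY and 7.4 to 7.47 in XX for red blood cells. Of 12 macrophage and leukocyte genes *Aif1* was lower in XY at E11.5, *C1qc* lower at E12.5 and *Mrc1* higher at E13.5, and the list mean ran from 6.87 to 7.72 in XY and 7.26 to 8.27 in XX at E12.5. The part of these cells in the members' differences was not tested.

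**Figure D4:**
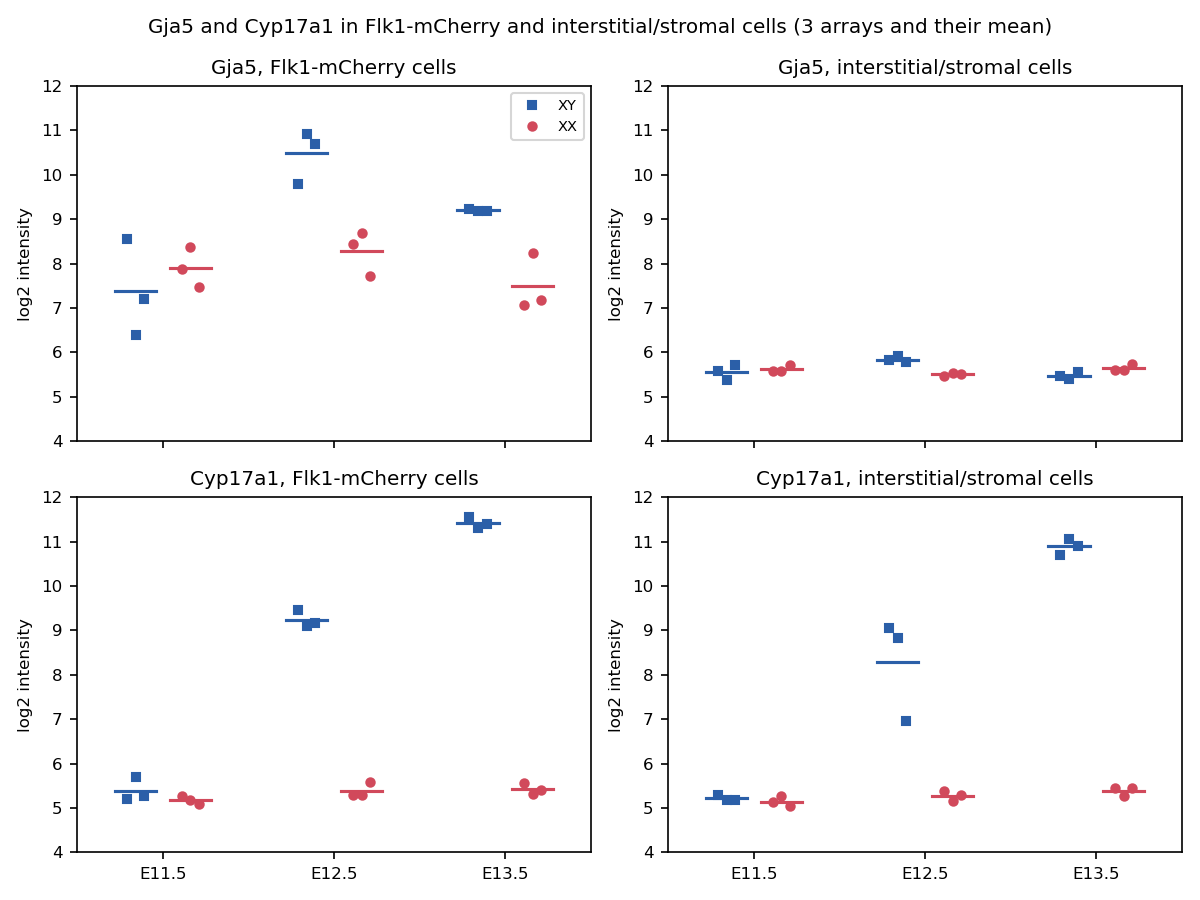
Log2 intensity (vertical axis) of *Gja5* (top) and *Cyp17a1* (bottom) in *Flk1-mCherry* (left) and in interstitial or stromal (right) cells by stage; squares are XY arrays, circles XX arrays and bars the means of 3. *Cyp17a1* is high in XY cells of both sorts at E12.5 and E13.5, and *Gja5* lies between 5.38 and 5.91 on every interstitial and stromal array.

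With time, *Gja5*, *Gja4*, *Dll4*, *Efnb2* and *Unc5b* were highest at E12.5 in XY *Flk1-mCherry* cells. *Gja5* rose by 3.09 ± 0.26 between E11.5 and E12.5, an 8.49-fold higher level at E12.5 (adjusted p = 1.8e-13), and was 2.59 to 3.67 when single arrays were left out. *Unc5b* measured 6.81 to 7.37 at E11.5 and 7.71, 8.16 and 8.24 at E12.5 in XY, a rise of 0.99 ± 0.15 (adjusted p = 3.2e-06). *Gja4* rose by 0.76 (adjusted p = 0.0097), *Dll4* by 0.71 (2.5e-05) and *Efnb2* by 0.68 (0.0085), so that 5 of 8 members rose, beside 6.23% of all clusters. Of these steps, *Efnb2* missed its call without E11.5 replicate 2 (adjusted p = 0.079), and *Gja4* without E11.5 replicate 3 or E12.5 replicate 3 (up to 0.12). With the *Flk1-mCherry* arrays alone *Gja4* was not called (0.23) and the other 4 were. Between E11.5 and E12.5 the dissection changed too, from gonad with some mesonephros to gonad alone, and stage and dissection cannot be told apart. Other genes moved over this step in XY too. The called Leydig genes all rose (*Cyp17a1* by 3.85), as did *Pdgfra* (1.38), *Dppa3* (1.70), *Dazl* (0.88) and *Aard* (1.00). The called macrophage genes fell (*C1qc* at -2.02). Among called pan-endothelial genes, *Mmrn2* (0.74), *Myct1* (0.66), *Cd93* (0.64), *Sox7* (0.615) and *Flt1* (0.60) rose, and *Cldn5* (-0.85) and *Sox18* (-0.73) fell. The part of these cells in the members' rises was not tested. The 6 mesonephric genes on the array had mean levels of 6.51 to 6.81 at E12.5 and 6.58 to 6.80 at E11.5 in XY.

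The same 5 genes were lower at E13.5 than at E12.5 in XY cells, where both dissections were of the gonad alone. *Gja5* fell by 1.28 ± 0.26 (adjusted p = 0.00093), *Gja4* by 0.85 (0.0062), *Unc5b* by 0.75 (0.00071), *Efnb2* by 0.66 (0.019) and *Dll4* by 0.59 (0.00081), beside 1.12% of all clusters called lower. Markers of other cells moved over this step too. The called Leydig genes all rose (*Cyp11a1* by 3.01, *Hsd3b1* by 2.36, *Star* by 2.13), as did the called macrophage genes (*Mrc1* by 1.35) and mural genes (*Rgs5* by 0.94). The called pan-endothelial genes, *Sox7* (-0.89) and *Icam2* (-0.765), were lower. The part of these cells in the declines was not tested. Both steps use the 3 E12.5 arrays, so their opposite signs are not independent. Among XY arrays, 5 members lay without overlap above and 2 below in the first step (16.2% of clusters in either direction), and 5 below and 1 above in the second (19.2%). The member that lay above was *Nr2f2*, at 9.64, 10.36 and 9.57 at E13.5 and 9.40, 9.35 and 9.05 at E12.5, a difference of 0.59 that did not pass (adjusted p = 0.23). With the *Flk1-mCherry* arrays alone none of the 5 declines kept its call (adjusted p of 0.067 to 0.33). After subtraction of the pan-endothelial mean *Gja5*, *Gja4* and *Unc5b* kept theirs. That subtraction shifts every cluster alike, so calls kept or lost by it are not read as results.

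In XX *Flk1-mCherry* cells 3 members changed between E11.5 and E12.5, where stage and dissection again cannot be told apart. *Unc5b* measured 7.82, 8.81 and 7.96 at E12.5 and 7.21, 7.13 and 7.49 at E11.5, a rise of 0.92 ± 0.15 (adjusted p = 3.8e-05). *Ephb4* measured 8.46, 8.27 and 8.48 at E12.5 and 9.14, 9.01 and 8.95 at E11.5, a fall of 0.63 ± 0.14 (adjusted p = 0.0031). Neither gene's arrays overlapped between these stages, beside 17.6% of all clusters without overlap. *Dll4* rose by 0.39 (adjusted p = 0.044), a call lost without any of 4 single arrays, so 3 of 8 members changed, beside 4.24% of all clusters. With the *Flk1-mCherry* arrays alone all 3 missed the threshold, at 0.093 for *Unc5b*, 0.055 for *Ephb4* and 0.38 for *Dll4*. Over this step the germ cell genes *Dppa3* (1.71) and *Dazl* (0.925) rose and the red blood cell gene *Tfrc* fell (-0.93). Of pan-endothelial genes *Cldn5* rose (0.80) and *Tek* fell (-0.77). The part of such cells in the members' changes was not tested. In XY the *Ephb4* step was -0.41 (adjusted p = 0.052). From E12.5 to E13.5 none of the 8 was called in XX, where 0.327% of clusters were; *Unc5b* at -0.58 (unadjusted p = 0.00026, adjusted p = 0.069) and *Gja5* at -0.78 (unadjusted p = 0.0038, adjusted p = 0.23) came nearest. The change of the XY minus XX difference between E11.5 and E12.5 also passed for *Efnb2*, at 0.85 ± 0.25 (adjusted p = 0.028), and was lost when any of 7 single arrays was left out.

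Genes that act with the members were followed as lists. Of 11 further Notch pathway genes, 5 were higher at E12.5 than at E11.5 in XY *Flk1-mCherry* cells, beside 6.23% of all clusters. They were the ligand gene *Jag1* (1.01), the target genes *Hey1* (1.15) and *Hey2* (0.92), and the receptor genes *Notch1* (0.63) and *Notch4* (0.40). The list median was 0.30, and the median over all clusters lay within 0.05 of 0 in every comparison of sex or stage within *Flk1-mCherry* cells. From E12.5 to E13.5 in XY, *Hey1* (-0.89), *Notch1* (-0.48) and *Notch4* (-0.46) fell, beside 1.12% of all clusters called lower, and *Heyl* rose (0.73). Between XY and XX, 1 of the 11 was called at E11.5, the ligand gene *Dll1*, lower in XY (-0.45, adjusted p = 0.018). *Jag1* was 2.13-fold higher in XY at E12.5 (adjusted p = 2.5e-05) and 2.64-fold at E13.5 (2.4e-08), and *Hey1* was 1.52-fold higher at E12.5 (0.033), so 2 of 11 were called at E12.5 and 3 at E13.5, all higher, where *Hey2* (1.85-fold) and *Heyl* (1.79-fold) joined *Jag1*, with list medians of 0.01 and -0.02. *Jag1* was also high outside the endothelium, at 8.15, 8.47 and 8.08 in XY interstitial cells at E13.5, against 8.33, 8.63 and 7.66 in XY *Flk1-mCherry* cells. The part of Leydig, interstitial or mural cells in the differences of these Notch pathway genes was not tested. Between XY and XX, 0.981%, 3.55% and 5.31% of all clusters were called over the 3 stages.

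Other arterial genes gave no shared direction between XY and XX. Of 12 tested, none was called at E11.5, *Sox17* (-0.59) and *Acvrl1* (-0.42) were lower in XY at E12.5, and at E13.5 *Sox17* was lower (-0.58) and *Cxcl12* higher (1.43). *Sox17* encodes a transcription factor of arterial endothelium and *Acvrl1* a receptor for BMP ligands. *Cxcl12*, a chemokine gene, measured 7.93, 9.25 and 7.01 in these XY cells and 9.70 to 10.11 in XY interstitial cells. Over time in XY, 5 of the 12 rose to E12.5 (*Mecom*, *Epas1*, *Nrp1*, *Cxcr4* and *Sema3g*) and 2 fell (*Foxc1* and *Foxc2*). In XX, *Cxcr4*, *Sox17* and *Sema3g* rose and *Foxc2* fell.

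Of 9 venous and lymphatic genes, 4 fell in XY, beside 2.66% of all clusters called lower, and 5 in XX, beside 2.88%, between E11.5 and E12.5. In XY *Prox1*, the determinant of lymphatic fate, was 1.99-fold and the lymphatic receptor gene *Lyve1* 2.34-fold lower at E12.5, and the list median was -0.25. In XX *Prox1* was 3.83-fold (adjusted p = 7.5e-12) and *Lyve1* 2.96-fold lower (2.7e-08), and the list median was -0.66. Here too stage and dissection cannot be told apart. In XY the called macrophage genes also fell over this step (*C1qc* by 2.02, *Mrc1* by 1.15), and the part of macrophages in these falls was not tested. Between XY and XX the co-receptor gene *Nrp2* was lower in XY at E11.5 (-0.63, adjusted p = 0.028) and at E13.5 (-0.92, adjusted p = 1.1e-05), and of the 9 genes 2 were called at E11.5 (*Vwf* at -0.35 was the other), none at E12.5 and 1 at E13.5. Within the members' own families, *Epha4* was 1.63-fold higher in XY at E12.5 and 1.6-fold at E13.5, 1 of 7 further ephrin and Eph genes, and none of 5 further connexin genes was called between XY and XX at any stage. Of further Robo, Slit, Unc5 and netrin genes, only *Robo2* was called between XY and XX *Flk1-mCherry* cells at E12.5, higher in XY by 2.17 (adjusted p = 2e-10). At E13.5 *Robo2* (1.95) and *Robo1* (0.58) were called, each higher in XY. *Robo2* measured 10.07 to 11.33 in XY interstitial cells, and the part of those cells in its difference was not tested.

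Outside the endothelium, *Nr2f2*, *Efnb2* and *Ephb4* differed between XY and XX supporting cells. *Nr2f2* measured 8.29, 8.70 and 8.50 in XY, against 9.52, 9.63 and 9.42 in XX at E11.5, where both sexes carried *Sry-EGFP*. At E12.5 it measured 7.04, 7.09 and 7.11 in XY and 8.51, 8.60 and 8.36 in XX, and at E13.5 it measured 7.39, 7.49 and 7.63 in XY and 7.90, 8.09 and 8.19 in XX. XY arrays lay below XX arrays at every stage. Of all clusters, 22% at E11.5, 42.6% at E12.5 and 47% at E13.5 were without overlap in either direction. The differences were -1.03 ± 0.25 (adjusted p = 0.0028), -1.41 ± 0.25 (7.5e-06) and -0.56 ± 0.25, the last not called (0.086). *Nr2f2* also fell between E11.5 and E12.5 in supporting cells of both sexes, by 1.42 in XY (adjusted p = 1.6e-05, 1 of 8 members beside 21.8% of clusters) and by 1.03 in XX (0.0041, with 2 of 8 beside 6.59%, the other being *Ephb4*, higher by 0.48), in stage comparisons that were added after the values were seen. In XY the reporter changed over that step, *Sox9-ECFP* at E12.5 and *Sry-EGFP* at E11.5, so stage and reporter cannot be told apart there.

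*Efnb2* ran the opposite way to *Nr2f2*. It measured 9.21, 9.03 and 8.59 in XY and 8.12, 7.89 and 7.74 in XX at E11.5, and its XY arrays also lay above the XX arrays at the later stages. The shares of all clusters without overlap are those given for *Nr2f2*. It was 2.04-fold higher in XY at E11.5 (adjusted p = 1.9e-05), 1.65-fold at E12.5 (0.00095) and 1.92-fold at E13.5 (2.2e-05). *Ephb4* was 1.67-fold higher in XY at E11.5 (adjusted p = 9.2e-05) and 1.29-fold at E12.5 (0.038), but 1.42-fold lower at E13.5 (0.0035), where XY arrays measured 7.56, 7.62 and 7.78, against 8.21, 8.02 and 8.25 in XX. Between E12.5 and E13.5 *Ephb4* fell by 0.68 in XY supporting cells (adjusted p = 0.0014, beside 1.63% of clusters called), within the *Sox9-ECFP* sort. *Gja4* at E13.5 was called at the margin (-0.51, adjusted p = 0.049). In all, 3 of 8 members were called at E11.5 (9.59% of clusters), 3 at E12.5 (30.7%) and 3 at E13.5 (29.4%). At E12.5 and E13.5 the sex of supporting cells and the reporter that marked them cannot be told apart.

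**Figure D5:**
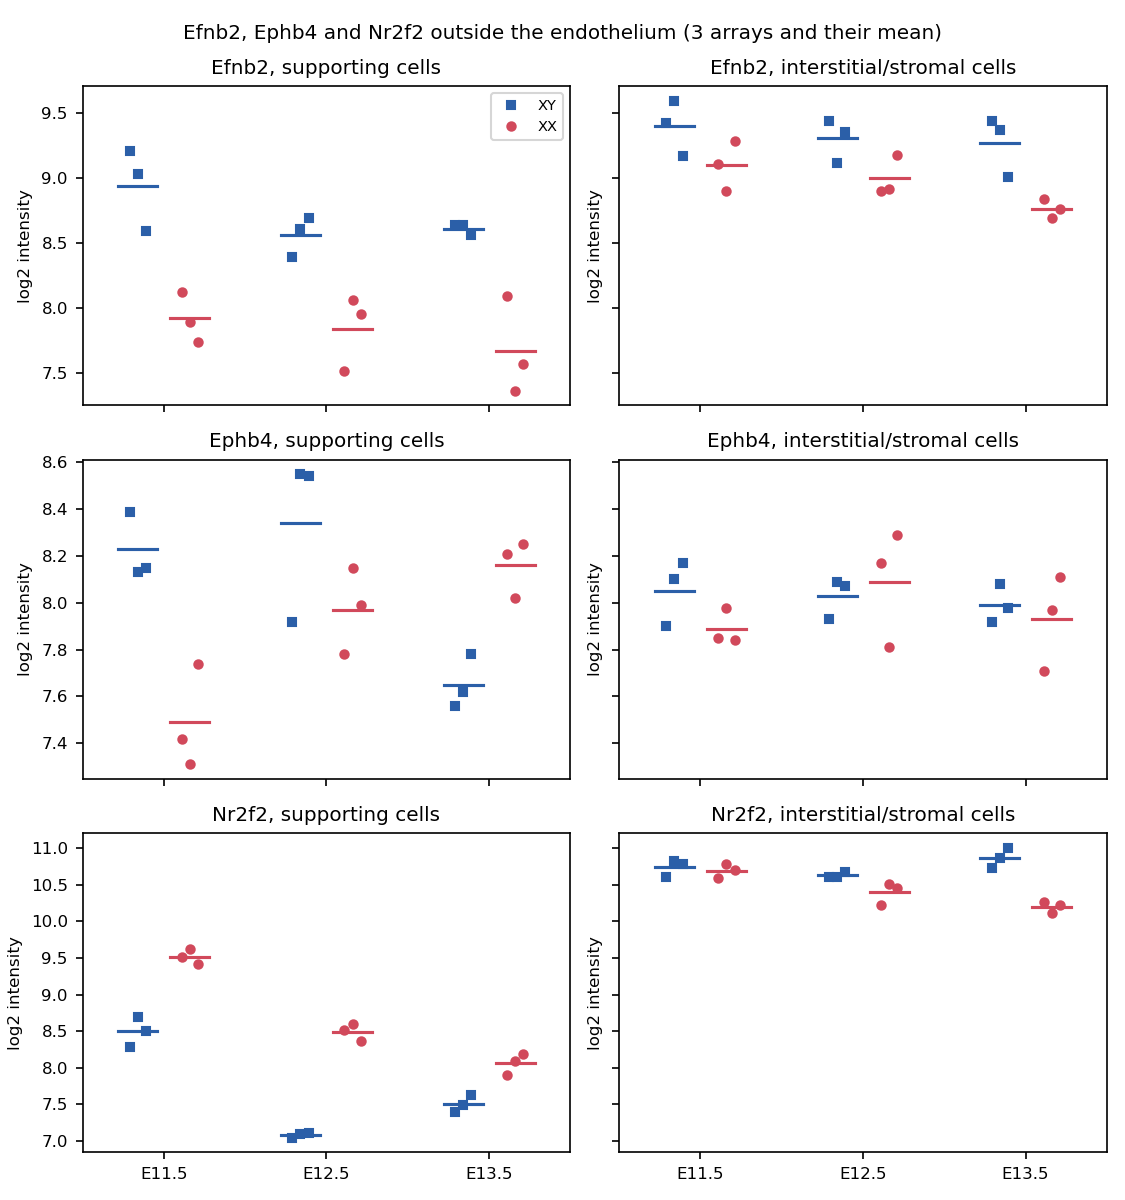
Log2 intensity (vertical axis, shared within a row) of *Efnb2*, *Ephb4* and *Nr2f2* in supporting (left) and interstitial or stromal (right) cells by stage; squares are XY arrays, circles XX arrays and bars the means of 3. In supporting cells *Nr2f2* is lower and *Efnb2* higher in XY at each stage, and in interstitial and stromal cells *Nr2f2* lies between 10.11 and 11.01 throughout.

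Interstitial and stromal cells showed no called XY minus XX difference for any member at any stage, where 0.238% of clusters were called at E11.5, 5.92% at E12.5 and 8.67% at E13.5. At an unadjusted p below 0.05 there were 2, at E13.5. The first was *Nr2f2*, with 10.73, 10.87 and 11.01 in XY and 10.26, 10.11 and 10.22 in XX, a difference of 0.67 (adjusted p = 0.091). Its arrays did not overlap, beside 25.1% of all clusters. The other was *Efnb2*, by 0.51 (adjusted p = 0.062). The XY minus XX difference of *Nr2f2* in interstitial and stromal cells exceeded that in supporting cells by 1.65 ± 0.35 at E12.5 (adjusted p = 0.00055, with 13% of clusters called) and 1.23 ± 0.35 at E13.5 (0.012, 13.3%), and by 1.07 at E11.5 (0.10, 2.36%). This comparison was also added after the values were seen. *Nr2f2* and *Efnb2* were each higher in interstitial or stromal than in supporting cells in all 6 comparisons within a sex and stage, by 1.17 to 3.55 for *Nr2f2* and 0.46 to 1.18 for *Efnb2*, beside 13.3%, 10.5% and 12.4% of clusters called higher in XY over the 3 stages and 14.2%, 8.89% and 5.87% in XX. The *Efnb2* call in XY at E11.5 was at the margin (adjusted p = 0.046) and was lost when any of 4 single arrays was left out.

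In germ cells 1 member differed between XY and XX, *Efnb2* at E13.5, which measured 7.26, 7.19 and 6.80 in XY and 7.55, 7.77 and 7.73 in XX. The level was 1.51-fold lower in XY (adjusted p = 0.0094, beside 21.1% of clusters called), and without XY replicate 3 the adjusted p was 0.10. At E11.5 and E12.5 none was called by limma (0.202% and 4.48% of clusters), and 0 and 1 had an unadjusted p below 0.05. Between E11.5 and E12.5, a step over which the labels change the germ cell dissection, *Efnb2* rose by 0.65 in XX germ cells (adjusted p = 0.016, beside 5.43% of clusters). *Ephb4* fell by 0.57 between E12.5 and E13.5 in XY germ cells (adjusted p = 0.0041, 6.66%). In *αSma-EYFP* cells no member passed limma in any of 7 comparisons, and *Efnb2* had an unadjusted p below 0.05 in 2 of them, XY minus XX at E12.5 (0.42) and E13.5 (0.39). Of all clusters, 0.249%, 5.15% and 5.73% were called between XY and XX over the 3 stages, 4.7% and 1.13% in the stage steps of XY and 2.23% and 0.291% in those of XX.

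Genes whose group means ran most like each member's over the 24 groups of the 4 lineages are given as a description. *Robo4* ran most like *Cyyr1*, *Mmrn2* and *Ptprb* (Pearson's r of 0.993 to 0.995), *Gja4* like *Sox7*, *Afap1l1* and *Esm1* (0.980 to 0.988), *Dll4* like *Pcdh12*, *Pik3cg* and *Clca2* (0.974 to 0.975), *Unc5b* like *Kcnj2*, *Piezo2* and *Mdga2* (0.967 to 0.984) and *Gja5* like *Mdga2*, *Esm1* and *Pik3cg* (0.957 to 0.960). *Efnb2* ran most like *Tmem255a*, *Lpar4* and *Elk3* (0.945 to 0.947), *Nr2f2* like *Zeb2*, *Tshz2* and *Ghr* (0.949 to 0.956) and *Ephb4* like *Myc*, *Ralb* and *Sema4c* (0.886 to 0.892). Groups of the same lineage are not independent, and no test was made of these correlations.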

How the data were processed

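RNA from cells sorted from fetal XY and XX gonads was amplified (Nugen) and hybridised to Affymetrix Mouse Gene 1.0 ST arrays. Per the methods and labels, the authors normalized scans from GCOS in Partek Genomics Suite by RMA with GC and sequence adjustment, and deposited log2 intensities for 35557 transcript clusters. Which arrays were normalized together is not given in the sources used here. Of 91 arrays, 90 came from sorted cells and 1 was not used. The reporter of the interstitial and stromal sort is not reported here. No depth applies, and the 3 arrays per group limit the precision. Each array is a pool of at least 1 litter, the study calls the 3 arrays biological replicates, and the labels do not say which litters went into which. Clusters were named from the platform annotation (21789 with 1 gene symbol, 1621 with several, 12147 with none). A cluster was tested where at least 2 of 3 arrays of any group exceeded log2 6. Group means of the 72 arrays of the 4 lineages were fitted with limma 3.58.1 (R 4.3.3) on the deposited values, with 48 residual degrees of freedom and Benjamini-Hochberg adjustment over all 16820 clusters within each comparison. The *αSma-EYFP* cells were fitted over 90 arrays (16859 clusters). The scripts were tested on simulated data. Named genes were the 8 members, list genes called in a *Flk1-mCherry* comparison and the 3 genes most like each member. Members and lists were chosen with earlier results of these data known. Alternatives were no filter, quantile normalization, a replicate block, array weights, a trended and robust prior, the limits of the methods (unadjusted p below 0.05 and fold above 1.5), the 90 arrays, the 18 *Flk1-mCherry* arrays, subtraction of the pan-endothelial mean and leaving out each array. The shared replicate numbers carry no stated pairing: of 36 pairs of groups, 10 had a correlation of deviations above 0.1 (range -0.309 to 0.234), so the block served only as an alternative. Promoters came from RefSeq (GRCm38.p6), in which 8 of 8 members matched.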

Additional observations from a re-analysis of the deposited data

Results flagged for a closer look

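Results listed here are those in which an effect differed between groups by a test of the difference itself. In *Flk1-mCherry* cells the XY minus XX difference of *Gja5* exceeded that at E11.5 by 2.71 at E12.5 and by 2.21 at E13.5, and that of *Efnb2* by 0.85 at E12.5. The XY minus XX difference in interstitial and stromal cells exceeded that in supporting cells for *Nr2f2*, by 1.65 at E12.5 and 1.23 at E13.5, and for *Ephb4*, by 0.56 at E13.5 (adjusted p = 0.045). The *Ephb4* value lost its call when any of 8 single arrays was left out.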

How the results depend on the processing

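Differences of the members that kept their direction and their side of the threshold numbered 604 of 608 without the filter, 598 with quantile normalization, 582 with array weights, 607 with a trended and robust prior, 578 under the limits of the methods, 544 of 552 over 90 arrays, 58 of 72 over the 18 *Flk1-mCherry* arrays, 60 of 72 after subtraction of the pan-endothelial mean, 78 of 80 without the E11.5 XY *Flk1-mCherry* arrays (chosen after seeing the data) and 4080 of 4176 when 1 array was left out. With the replicate block 605 of 608 did. The XY minus XX calls in *Flk1-mCherry* cells numbered 4, against 9 with array weights, 2 over the 18 arrays and 7 after the subtraction. At E12.5 they were 2, against 5 with array weights and 1 over the 18 arrays, and at E13.5 2, against 4 with array weights, 1 over the 18 arrays and 4 after the subtraction. The stage calls in these cells numbered 13, against 20 with array weights and 4 over the 18 arrays, and the changes with stage 3, against 0 over the 18 arrays. In *αSma-EYFP* cells the calls were 0, against 2 with array weights. *Gja4* at E13.5 reversed after the subtraction, at 0.50 (adjusted p = 0.009), against a main value near 0. The subtraction shifts every cluster by the same amount within a comparison, so calls gained or lost by it are not read as results about the members. The fit over 18 arrays estimates the spread from fewer samples. The cause of the other moves was not tested. Leaving out 1 array gave 47 to 48 calls for *Flk1-mCherry* against the mean of the other lineages, 137 to 140 against each lineage, 28 to 31 for interstitial and stromal against supporting and germ cells, 3 to 6 for XY minus XX in *Flk1-mCherry* cells (0 to 2 at E11.5, 1 to 3 at E12.5, 2 to 3 at E13.5), 9 to 11 for XY minus XX in the other lineages, 10 to 15 for stage in *Flk1-mCherry* cells, 2 to 3 for the changes with stage, 5 to 7 for stage in the other lineages, 2 to 4 for the interstitial minus supporting difference and 0 in *αSma-EYFP* cells. Other clusters of a member could not be tried, since each has 1. No detection values were used, so values near log2 6 have an unknown distance to background.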
